A study of Mus musculus with 2 samples.

Results

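Among 1490 cultured mouse spermatogonia, 298 carried the highest share of stress response transcripts, and these stress-high cells were compared with the other 1192 germ cells gene by gene. The cells were chosen by their own RNA. A germ cell was a cell with at least 1000 UMIs (unique molecular identifiers, each standing for 1 captured RNA molecule) whose summed Ddx4, Dazl, Mael, Dnd1 and Zbtb16 exceeded its summed Col1a1, Col1a2, Col3a1, Fn1 and Sparc. The score was the summed UMIs of 6 rule genes, Ddit3, Herpud1, Trib3, Asns, Chac1 and Atf3, per 10000 UMIs of the cell, and the top 20% over both libraries were the members. The class is therefore the upper range of a continuous score and not a cell type. The 2 libraries together held 1676 complete cells.

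The spermatogonia came from adult C57BL/6 testes by magnetic selection for the surface protein THY1, and they grew in serum-free medium with GDNF and bFGF over a feeder layer of SNL76/7 fibroblasts arrested with mitomycin. Cells were lifted off the feeders and exposed on plastic for 24 h to 2 µL Lipofectamine with 75 pmol siRNA, either a non-targeted control (genotype label Control) or one against Chd4 (label Chd4 knockdown), the chromatin remodelling ATPase of the NuRD complex. Both groups thus shared the culture, the transfection reagent and the move to plastic, and untransfected cells were not analysed here. The 3 biological replicates of a group were mixed in equal cell numbers ahead of droplet capture, so each group was 1 library, no difference has a replicate check, and no p-value is given. Intervals are 95% intervals for counting error only.

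The control siRNA library gave 730 germ cells (11611323 UMIs in named genes, median 15248.5 per cell) and the Chd4 siRNA library 760 (12217206 UMIs, median 15511). Cells with higher summed feeder markers numbered 79 and 92, and 1 listed barcode occurred in both libraries. Over the pooled UMIs of a class, a level is given as CPM, the gene's UMIs scaled to 1000000 UMIs of named genes. Chd4 itself was at 505 CPM in stress-high and 541 CPM in other germ cells of the control library, against 200.1 and 267 CPM in the Chd4 siRNA library, so the targeted gene was lower in both classes of the library labelled as its knockdown.

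As background, the rule genes belong to the integrated stress response. Kinases that sense amino acid shortage, unfolded protein in the endoplasmic reticulum (ER), double-stranded RNA or haem shortage phosphorylate the translation factor eIF2α, which slows general translation and raises translation of the transcription factor ATF4. ATF4 acts on genes of amino acid synthesis, import and tRNA charging, and the ER stress sensors IRE1 and ATF6 act in parallel on chaperones and degradation factors through XBP1 and cleaved ATF6. Ddit3 encodes CHOP, a transcription factor downstream of ATF4. Trib3 encodes a pseudokinase that binds ATF4, Atf3 a related transcription factor, Asns asparagine synthetase, Chac1 a glutathione-degrading enzyme, and Herpud1 an ER membrane protein of the degradation machinery.

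Promoters were searched for known DNA elements of these arms. The windows below are those of rule genes that held one, and of some synthetase and chaperone genes that did. The synthetase and chaperone genes printed were taken from those at least 1.5-fold higher in stress-high cells of both libraries. Others that held an element, such as the chaperone gene Hsp90b1 with an ERSE (defined below), are not printed. The windows are shown because rule genes and chaperone genes held different elements. Promoters were RefSeq windows (GRCm38.p6) from 250 bases before to 50 after the start, and 6730 of 8252 genes matched. All are written 5′ to 3′ in the gene's orientation, with the element in capitals. The C/EBP-ATF response element (CARE) was searched on both strands as TGATGNAA, whose reverse complement is TTNCATCA:

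Herpud1, chr8:94386291-94386350, plus strand: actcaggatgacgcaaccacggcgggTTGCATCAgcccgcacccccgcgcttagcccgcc

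Chac1, chr2:119351023-119351082, plus strand: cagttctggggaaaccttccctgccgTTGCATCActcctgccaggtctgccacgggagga

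Atf3, chr1:191183410-191183469, minus strand: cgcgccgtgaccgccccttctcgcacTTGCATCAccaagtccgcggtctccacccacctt

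Asns, chr6:7693214-7693243, minus strand: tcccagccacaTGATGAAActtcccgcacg

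Trib3, chr2:152344028-152344057, minus strand: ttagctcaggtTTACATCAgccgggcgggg

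Gars, chr6:55037960-55037989, plus strand: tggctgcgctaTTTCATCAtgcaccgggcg

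Iars, chr13:49682126-49682155, plus strand: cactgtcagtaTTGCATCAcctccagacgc

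Yars, chr4:129189895-129189924, plus strand: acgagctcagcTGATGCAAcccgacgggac

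Of the 6 rule genes, 5 held a CARE in the window, Ddit3 being the exception. The elements of Herpud1, Chac1 and Atf3 began 112, 193 and 110 bases before the start, that of Asns 23 bases before it, and those of Trib3, Iars and Yars lay 15, 8 and 4 bases into the transcript. In comparison, 3.97% of all 32851 windows in the table held a CARE, as did 2.25% of the 6724 measured genes with a window. Among the aminoacyl-tRNA synthetase genes, Gars, Iars and Yars were among the 5 of 13 with a CARE. Of 11 ATF4 target and amino acid stress genes and 4 amino acid transporter genes with a window, 0 held one. No match in a window says only that these letters were absent there, and a match is not a shown binding site.

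The ER stress response element (ERSE), CCAAT and CCACG separated by 9 bases, was searched on both strands. It occurred in 0.119% of all windows and in 7 of 15 ER chaperone genes with a window, including the genes printed here, which were higher in the stress-high cells:

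Hspa5, chr2:34771999-34772069, plus strand: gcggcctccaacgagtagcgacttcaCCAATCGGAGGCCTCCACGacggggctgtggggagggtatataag

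Pdia6, chr12:17266465-17266535, plus strand: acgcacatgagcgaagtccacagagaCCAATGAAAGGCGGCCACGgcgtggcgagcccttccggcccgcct

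Calr, chr8:84847049-84847119, minus strand: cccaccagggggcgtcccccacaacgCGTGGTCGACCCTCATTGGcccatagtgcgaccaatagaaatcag

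None of the 6 rule genes held an ERSE, and none of the 15 chaperone genes held a CARE. Of the 186 genes higher in stress-high cells of both libraries that had a window, 14 (7.53%) held a CARE and 5 (2.69%) an ERSE. Of the 38 lower genes with a window, 0 held either element. A sterol response element, TCACNCCAC on either strand, was in 1.24% of all windows, in 1 of 18 sterol genes and in 2 of the 186 higher genes.

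Stress-high cells made up 130 of 730 germ cells of the control library, 17.8% (15.1 to 20.8, Clopper-Pearson), and 168 of 760 of the Chd4 siRNA library, 22.1% (19.2 to 25.2). The share was thus 4.30 percentage points higher after Chd4 siRNA (interval 0.232 to 8.34, Newcombe), a difference between 2 libraries. Across the 11 other ways of choosing cells it stayed between 3.49 and 6.18 points, and it was 3.53 points in cells thinned to 9000 UMIs. The median score of all germ cells was 0.900 in the control and 1.16 in the Chd4 siRNA library, and the 90th percentile was 4.13 and 5.30. Stress-high cells were shallower than the rest: their median was 13865 UMIs against 15498 in the control and 13980.5 against 16094 in the Chd4 siRNA library.

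The scores had no gap at the cut. The lowest score inside was 2.743 and the highest outside 2.741 per 10000 UMIs, and 65 cells lay within 10% of the cut, 31 inside and 34 outside. Members had a median score of 4.64 and other germ cells 0.755, with 331 cells holding 0 rule-gene UMIs and the highest score at 23.7. A member held a median of 7 rule-gene UMIs (1 to 37) and another germ cell 1 (up to 10). Ddit3 supplied 52.8% of the rule-gene UMIs over all germ cells, Asns 19.8%, Herpud1 16.9%, Trib3 3.84%, Atf3 3.54% and Chac1 3.06%. In 172 members (57.7%) at least 3 of the 6 rule genes were detected, against 65 other germ cells (5.45%), and 4 members carried all 6.

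**Figure D1:**
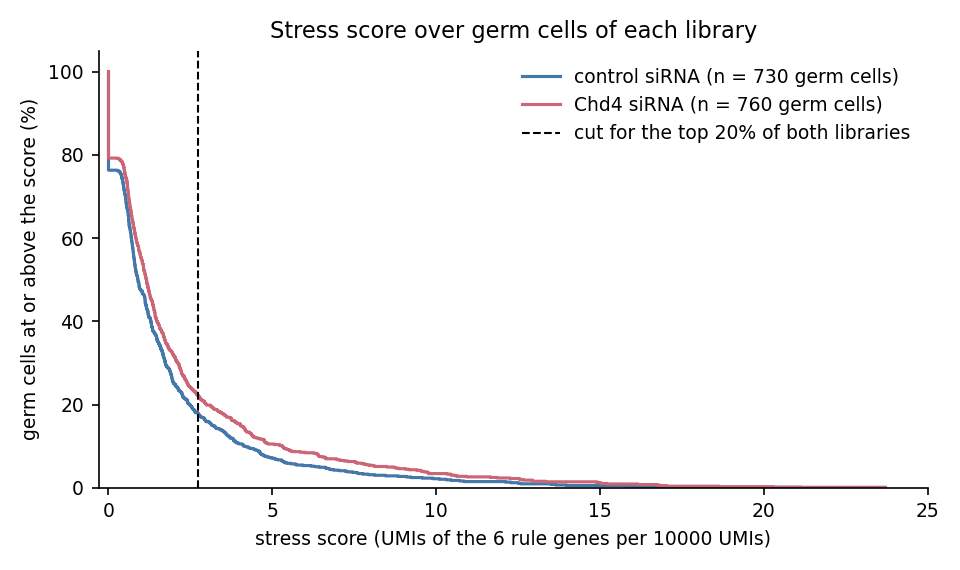
Stress score (UMIs of the 6 rule genes per 10000 UMIs of a cell, x axis) against the percentage of germ cells at or above that score (y axis), 1 line per library; the dashed line is the cut. The Chd4 siRNA line lies above the control line at the cut, where 22.1% and 17.8% of germ cells remain, and neither line has a step there.

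The rule genes' own levels describe the choice and are no finding. Ddit3 was at 319.9 CPM in stress-high and 42.4 CPM in other germ cells of the control library, and at 354 and 41.8 CPM in the Chd4 siRNA library. Herpud1 was at 106 and 13.0 CPM (control) and 114 and 13.1 CPM (Chd4 siRNA). Asns, on chromosome 6 and the least separated of the rule genes, was at 73.6 and 23.1 CPM in the control and 86.6 and 29.0 CPM after Chd4 siRNA. The scarcer genes Trib3, Chac1 and Atf3 lay between 19.7 and 25.6 CPM in members and between 1.23 and 4.08 CPM in the rest.

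Each rule gene was also measured in cells chosen by the other 5. Ddit3 was then 3.54-fold higher in the control and 3.83-fold higher in the Chd4 siRNA library, as log2 ratios 1.82 (1.64 to 2.01) and 1.94 (1.78 to 2.098). Herpud1 gave log2 ratios of 2.38 and 2.46, Trib3 of 2.55 and 2.35, Atf3 of 2.77 and 2.11, and Chac1 of 3.08 and 3.40. Asns gave the lowest, 0.99 (0.65 to 1.32) and 0.95 (0.66 to 1.23). When a random part holding 50% of each cell's UMIs chose the members and the rest measured them, Asns stood at 1.36 and 1.14 and Ddit3 at 2.38 and 2.55.

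Co-detection of pairs of genes was measured in cells thinned to 9000 UMIs. Those with a Herpud1 UMI held 2.59 times (control) and 3.60 times (Chd4 siRNA) the Ddit3 level of those without, and 1.78 and 1.81 times the Hspa5 level. Their Asns level was 1.66 and 1.89 times that of cells without. Cells with an Asns UMI held 2.29 and 1.93 times the Herpud1 level and 1.68 and 1.44 times the Ddit3 level. For Hspa5 the values were 1.22 and 1.35 times. Tmc3 was 2.37-fold and 1.80-fold higher in cells with a Herpud1 UMI. It was 1.003-fold and 1.21-fold in cells with an Asns UMI, where both intervals on the log2 scale, -0.42 to 0.41 and -0.08 to 0.62, include 0. In the other direction, cells with a Tmc3 UMI held 1.003 and 1.34 times the Asns level, log2 0.00 (-0.46 to 0.45) and 0.42 (0.04 to 0.80), and 1.99 and 2.20 times the Herpud1 level. Whether the Herpud1 and Asns values differ from each other was not tested.

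Over 8246 genes with at least 200 UMIs, 219 (2.66%) were at least 1.5-fold higher in stress-high than in other germ cells in both libraries and 48 (0.582%) at least 1.5-fold lower; the 6 rule genes are not among them. Intervals lay above 0 in both libraries for 845 genes (10.2%) and below 0 for 420 (5.09%), the background for the interval counts of the lists. The median gene had a log2 ratio of 0.04 in the control and 0.09 in the Chd4 siRNA library. With this scaling 82.0% of the called genes were higher. TMM factors moved all log2 ratios by -0.10 and -0.14 and gave 121 higher and 99 lower genes (55.0% higher), and DESeq2 size factors moved them by -0.08 and -0.12 and gave 132 and 83 (61.4% higher). Log2 ratios above 0 but under these shifts change sign with them. All counts below are on the first scaling, "called" means at least 1.5-fold in both libraries, and gene lists are described by members with at least 200 UMIs. These counts come from the contrast that chose the cells' score, so they describe the class and are not tests.

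**Figure D2:**
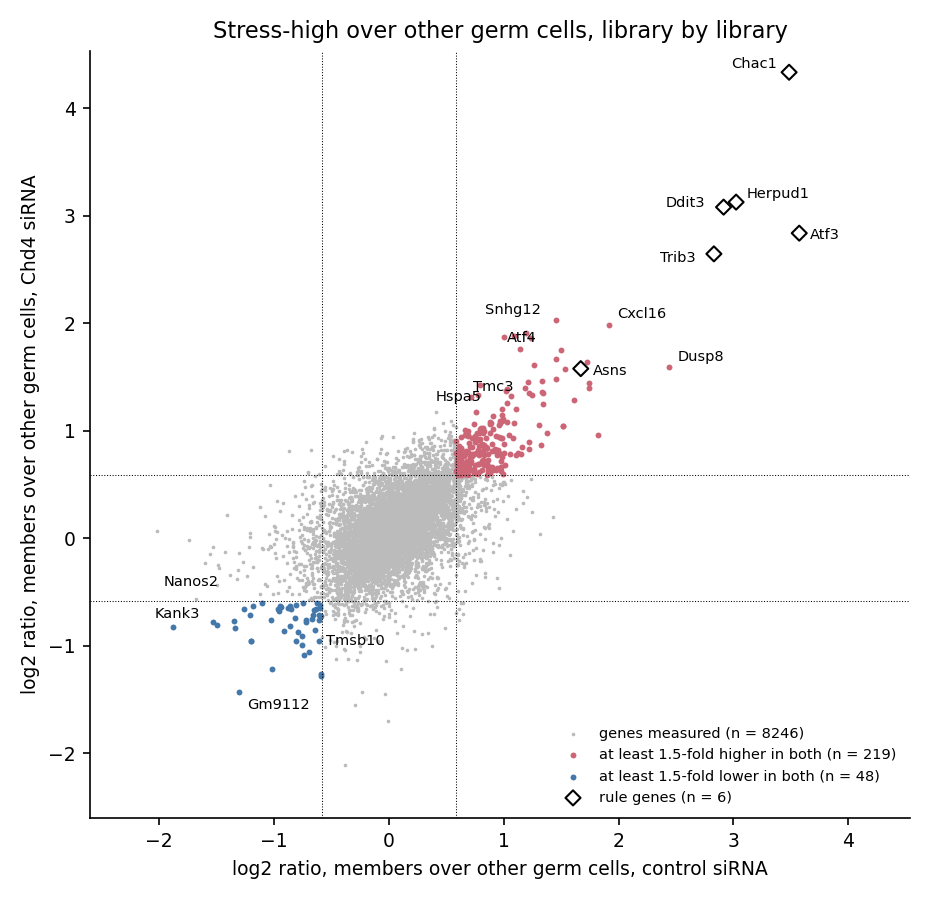
Log2 ratio of stress-high over other germ cells in the control (x axis) and Chd4 siRNA library (y axis), 1 point per gene with at least 200 UMIs, and the rule genes as diamonds; dotted lines mark 1.5-fold. The 219 genes higher in both libraries include Atf4 at 1.501 and 1.75, and the 48 lower ones Tmsb10 at -0.64 and -0.85.

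The ATF4 arm was higher. Atf4 (chr15:80255184-80257541), the transcription factor of the response, led all genes when ranked by the interval end closer to 0 in the weaker library. Its level was 279 CPM in stress-high and 98.5 CPM in other germ cells of the control library, and 338 and 100.5 CPM in the Chd4 siRNA library. The log2 ratios were 1.501 (1.35 to 1.66) and 1.75 (1.61 to 1.89), so the pooled level was higher in stress-high cells of both libraries. These intervals do not measure the spread between cells. Of 12 ATF4 target and amino acid stress genes, 6 were called higher and 0 lower, 9 had intervals above 0 in both libraries, and the list median was 0.64 in each. The called genes were Atf4 itself, Gpt2 (alanine synthesis), Mthfd2 (mitochondrial folate metabolism), Ppp1r15a (GADD34, which directs dephosphorylation of eIF2α), Ddit4 and Sesn2 (both inhibitors of mTORC1 signalling).

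Gpt2 was at 25.1 and 7.60 CPM in the control and 29.7 and 9.50 CPM in the Chd4 siRNA library, a log2 ratio of 1.72 (1.16 to 2.27) and 1.65 (1.18 to 2.11). Mthfd2 gave 0.78 and 0.78, Ppp1r15a 0.79 and 0.69, Sesn2 0.99 and 1.15, and Ddit4 0.74 and 1.07. The ratios of Mthfd2, Ppp1r15a, Sesn2 and Ddit4 are smaller than that of Atf4, and the levels of the 5 genes among the other germ cells ranged from 7.60 CPM for Gpt2 to 143 CPM for Mthfd2.

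Of 19 cytosolic aminoacyl-tRNA synthetase genes, whose enzymes load amino acids onto tRNAs, 7 were called higher and 0 lower, 11 had intervals above 0 in both libraries and 1 below, with medians of 0.39 and 0.50: Cars, Gars, Iars, Lars, Mars, Sars and Yars. Cars, for cysteine, stood at 119 and 43.6 CPM in the control and 135 and 48.4 CPM in the Chd4 siRNA library, log2 ratios 1.46 (1.22 to 1.69) and 1.48 (1.28 to 1.69). Sars, for serine, gave 0.96 and 1.06 and Gars, for glycine, 0.76 and 0.90. Vars, for valine, went the other way, at -0.44 (-0.76 to -0.13) and -0.26 (-0.51 to -0.01).

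The mitochondrial synthetases, a separate set of enzymes, gave 0 called genes of 14, with medians of -0.11 and 0.08. Of 7 amino acid transporter genes, Slc7a1 (cationic amino acids) and Slc6a9 (glycine) were called higher, 3 had intervals above 0 in both libraries, and the medians were 0.47 and 0.28. Slc7a1 was at 77.3 and 41.6 CPM in the control and 73.0 and 39.8 CPM in the Chd4 siRNA library, and Slc6a9 gave log2 ratios of 0.96 and 0.94. Slc38a2, a neutral amino acid transporter, gave 0.47 and 0.66 and was not called.

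The ER folding machinery was higher almost throughout. Of 17 ER chaperone and folding genes, 15 had intervals above 0 in both libraries (10.2% of all genes did) and 0 below, with a median of 0.55 in each. Called were 4, Hspa5, Pdia6, Calr and Hsp90b1. Hspa5 encodes BiP, the Hsp70 of the ER lumen and a standard marker of the unfolded protein response, and its ERSE is printed above. It stood at 320.5 and 154 CPM in the control and 361 and 145 CPM in the Chd4 siRNA library, log2 ratios of 1.06 (0.92 to 1.20) and 1.32 (1.20 to 1.44). Pdia6, a disulfide isomerase, gave 0.88 and 1.06, Calr, a lectin chaperone, 0.69 and 0.70, and Hsp90b1 (GRP94) 0.60 and 0.74.

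Of 16 ER-associated degradation genes, 2 were called: Xbp1, the transcription factor activated by IRE1, at 0.98 (0.71 to 1.24) and 0.94 (0.70 to 1.18), and Vimp, an ER membrane selenoprotein, at 0.61 and 0.83. Xbp1 levels were 89.6 and 45.5 CPM in the control and 87.5 and 45.6 CPM in the Chd4 siRNA library. The counts do not separate spliced from unspliced Xbp1. Vcp, the ATPase that extracts substrates, gave only 0.20 and 0.22. The sensors and eIF2α kinases that start the response gave 0 called genes of 8 and medians of -0.09 and 0.02. Of 25 genes of the translocon and vesicle coats, 1 was called, the ER retrieval receptor Kdelr3 at 0.68 (-0.03 to 1.34) and 0.72 (0.09 to 1.32).

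Stress lists outside these arms had 0 or 2 called genes each, where 2.66% of all genes were called higher. In lists this short 0 called is near that share, and 2 called is above it. Of 14 heat shock and cytosolic chaperone genes 0 were called and the medians were -0.02 and 0.11. Hspe1, the mitochondrial co-chaperonin, gave -0.15 and -0.19. Of 12 NRF2 genes, Hmox1 (haem oxygenase, 0.66 and 0.68) and Sqstm1 (the autophagy receptor p62, 0.66 and 1.01) were called, with list medians of -0.02 and -0.04. Of 14 p53 targets, Btg2 (0.59 and 0.64) and Bbc3 were called. Bbc3 encodes the pro-apoptotic protein PUMA and gave 0.98 (0.56 to 1.38) and 0.72 (0.33 to 1.10). The p53 list had 4 of 14 intervals above 0 in both libraries (10.2% of all genes did) and medians of 0.36 and 0.09. Cdkn1a, the cell cycle inhibitor p21, gave 0.61 and 0.41 and Mdm2, which targets p53 for degradation, 0.43 and 0.29. Among 8 apoptosis regulators 0 were called.

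Sterol synthesis genes were higher. Of 25 genes of sterol synthesis and uptake, which SREBP2 controls from the ER membrane, 18 had intervals above 0 in both libraries and 0 below, and medians were 0.53 and 0.58. Called were 7: Msmo1, Mvd, Pmvk, Fdft1, Dhcr7 and Sc5d, all enzymes of the pathway, and Insig1, the ER protein that restrains SREBP processing. Msmo1 stood at 299 and 159 CPM in the control and 341 and 169 CPM in the Chd4 siRNA library, log2 ratios of 0.91 (0.77 to 1.05) and 1.02 (0.89 to 1.14). Mvd gave 0.99 and 1.20, Pmvk 0.98 and 0.93, and Insig1 0.86 and 0.79.

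Of 17 autophagy and lysosome genes, Ctsd, Ctsl and Sqstm1 were called higher, 10 had intervals above 0 in both libraries and 0 below, and medians were 0.31 and 0.45. Ctsl, a cysteine protease, was at 348 and 185 CPM in the control and 427 and 194 CPM in the Chd4 siRNA library. Ctsd, an aspartic protease, was at 352 and 204 CPM and at 433 and 219 CPM. A wider list, chosen after these values were seen, held 52 lysosomal enzyme, membrane and proton pump genes, with 16 called higher, 0 lower and medians of 0.40 and 0.55. Among its members were Gaa, the acid glucosidase, at 1.34 (1.11 to 1.57) and 1.25 (1.04 to 1.46), Grn at 0.82 and 0.98, the calcium channel gene Mcoln1 at 0.75 and 0.68, and the proton pump genes Atp6ap2 (0.93 and 0.95) and Atp6v0d1 (0.60 and 0.63).

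**Figure D3:**
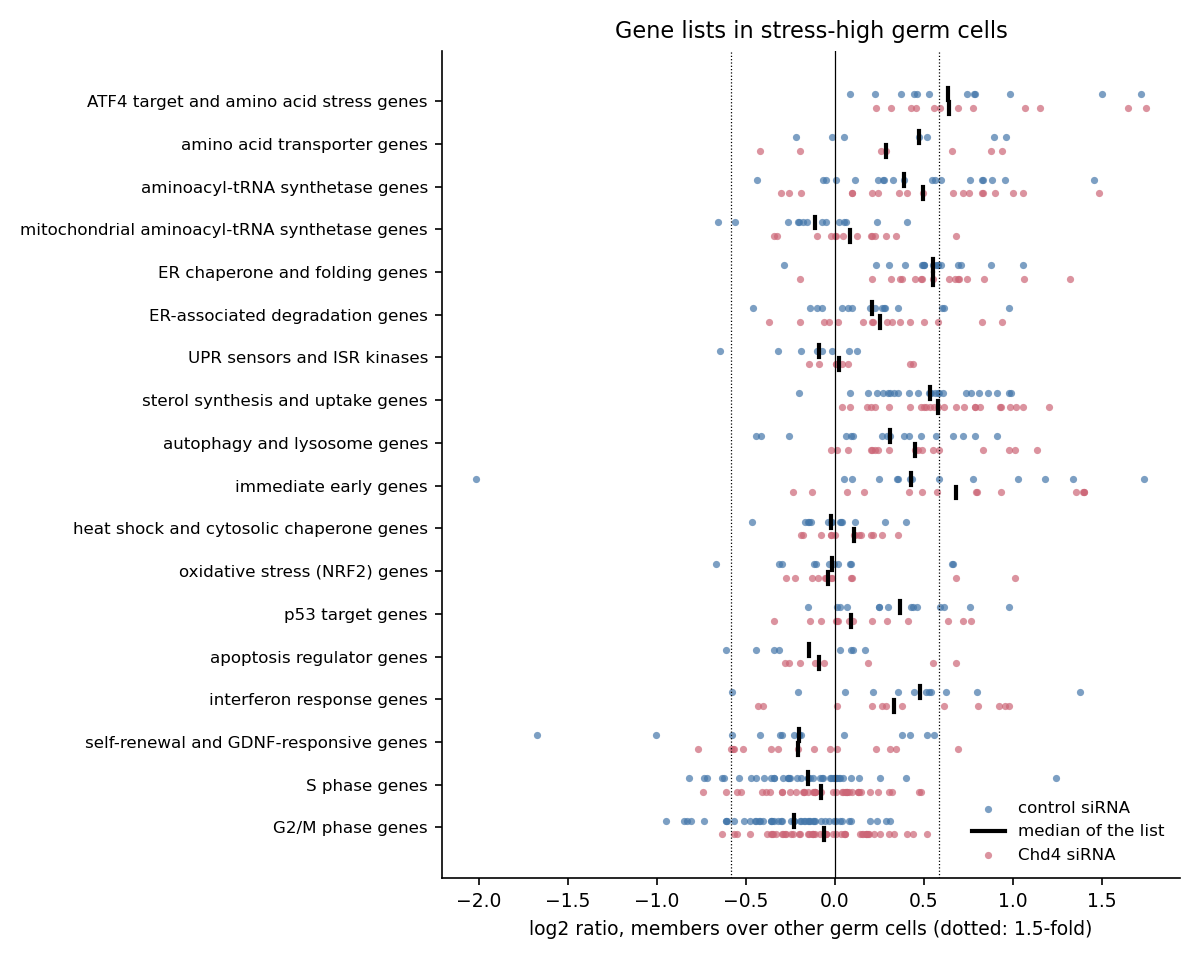
Log2 ratio of stress-high over other germ cells for each gene of 18 lists (1 point per gene with at least 200 UMIs, rule genes left out), with the control library above and the Chd4 siRNA library below in each list and black bars at the list medians. ER chaperone genes (medians 0.55 and 0.55) and sterol genes (0.53 and 0.58) lie mostly to the right of 0, while heat shock genes (-0.02 and 0.11) surround it.

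Immediate early genes were higher, with 5 of 14 called and medians of 0.43 and 0.68: Dusp1, Fos, Jun, Jund and Klf6. Jun was at 80.0 and 35.2 CPM in the control and 93.7 and 35.4 CPM in the Chd4 siRNA library, log2 ratios of 1.18 and 1.40. Fos gave 1.03 and 1.39 and Dusp1, a MAP kinase phosphatase, 1.74 and 1.40. Of 12 interferon response genes, the class I antigen genes H2-D1 (1.38 and 0.98) and H2-K1 (0.80 and 0.81) were called. Irf1 gave 0.54 and 0.96. Intervals lay above 0 in both libraries for 6 of the 12 (against 10.2% of all genes), and medians were 0.48 and 0.34. H2-D1 and H2-K1 are near-identical in places, so reads may be split between them.

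Tmc3, a gene of the transmembrane channel-like family, was not used to choose the cells, was picked for description with earlier results of these data known, and was higher in them. Its level was 80.0 CPM in stress-high and 33.8 CPM in other germ cells of the control library, and 94.9 and 37.6 CPM in the Chd4 siRNA library, log2 ratios of 1.24 (0.95 to 1.53) and 1.34 (1.09 to 1.58). Tmc3 (chr7:83584927-83625614) was therefore 2.37-fold and 2.53-fold higher. The 12 highest genes, which do not include Tmc3, included Cxcl16, a membrane-bound chemokine, at 1.92 and 1.99 from 5.65 and 5.62 CPM in other germ cells, and the phosphatase gene Dusp8 at 2.44 and 1.59. Olah, a thioesterase of fatty acid synthesis, gave 1.74 and 1.45. The non-coding Snhg12, a snoRNA host transcript, gave 1.45 and 2.03, and the transcripts Zfos1 (1.33 and 1.36) and 1810032O08Rik (1.46 and 1.67) are annotated as processed transcripts.

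Of 15 germline genes, 1 was called higher, 5 (against 10.2% of all genes) had intervals above 0 in both libraries and 0 below. Ddx4, a germ cell RNA helicase, was at 207 and 183 CPM in the control and 258 and 192 CPM in the Chd4 siRNA library, and Zbtb16, also used to define germ cells, was at 94.9 and 103 CPM and at 111 and 104 CPM. Sycp3, a synaptonemal complex gene expressed in cultured spermatogonia, was the called gene, at 0.62 and 0.78. Mael, a piRNA pathway gene, gave 0.36 and 0.34. Of 10 regulators of undifferentiated spermatogonia and 8 differentiation genes, 0 were called, with medians between -0.01 and 0.12. Ccnd2 was slightly lower at -0.20 and -0.21.

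Self-renewal genes were mixed. As background, GDNF supports spermatogonial stem cells through RET and induces Bcl6b, Etv5 and Lhx1, and Nanos2 encodes an RNA-binding protein that holds cells undifferentiated. Of 15 such genes 0 were called, 4 had intervals below 0 in both libraries (5.09% of all genes did) and 1 above, and medians were -0.20 and -0.21. Nanos2 was at 9.06 CPM in stress-high and 29.0 CPM in other germ cells of the control library (17 and 282 UMIs), and at 15.7 and 23.2 CPM in the Chd4 siRNA library, log2 ratios of -1.68 (-2.48 to -0.97) and -0.56 (-1.10 to -0.06). Bcl6b was at 43.2 and 86.8 CPM and at 59.8 and 85.7 CPM, log2 ratios of -1.01 and -0.52. Etv5 gave -0.31 and -0.58 and Lhx1 -0.30 and -0.57. Cd9, a surface protein of these cells, was higher at 0.56 and 0.69.

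The 12 lowest genes were of several kinds. Tmsb10, an actin-binding peptide, was at 1638 CPM in stress-high and 2554 CPM in other germ cells of the control library, and at 1109 and 2005 CPM in the Chd4 siRNA library, log2 ratios of -0.64 (-0.70 to -0.59) and -0.85 (-0.91 to -0.80). The chromatin protein genes Hmgn2 (-0.63 and -0.61) and Hmgn5 (-1.35 and -0.77) and the RNA-binding protein gene Elavl2 (-1.11 and -0.60) were lower. Cdc42ep3 (-1.34 and -0.83) and Kank3 (-1.53 and -0.78) bear on the cytoskeleton. Pfn1, another actin-binding protein, gave -0.52 and -0.49 and was not called. The loci Gm9112 and Gm9844 gave -1.31 and -1.43 and -0.76 and -0.91, but predicted loci of this kind can share reads with related genes and are uncertain.

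Highly expressed housekeeping genes were shifted slightly. Among 77 respiratory chain and ATP synthase subunit genes, 45 had intervals below 0 in both libraries and 2 above, with 2 called lower (Cox7a1 and Cox8c) and medians of -0.17 and -0.24. Uqcr11 gave -0.53 and -0.57 and Cox6c -0.44 and -0.52. Among 81 cytosolic ribosomal protein genes 55 had intervals below 0, with medians of -0.07 and -0.12. Both lists were chosen after the values were seen. TMM factors would put these medians lower by their shifts of -0.10 and -0.14.

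Cell cycle composition moved with the score. Phases were called in cells thinned to 9000 UMIs, which left out 13 stress-high and 52 other germ cells in the control and 25 and 40 in the Chd4 siRNA library. Of the thinned cells, 12.8% of stress-high cells and 20.4% of other germ cells were called G2/M in the control library, and 6.99% and 18.3% in the Chd4 siRNA library (unthinned, 14.6% and 21.7%, and 8.33% and 18.2%). The share called G1 was 42.7% against 29.7% and 46.2% against 33.0%. Stress-high cells made up 23.5% and 26.6% of G1 cells and 11.8% and 9.01% of G2/M cells. Mki67, the proliferation marker, gave -0.95 and -0.63 and Cenpf -0.48 and -0.38. Of 41 S phase genes, 8 had intervals below 0 in both libraries and 1 above, with medians of -0.15 and -0.07. Cdc6 was the 1 called lower. Nasp, a histone chaperone of S phase, was the 1 above, at 0.40 and 0.48. Of 49 G2/M genes, 10 had intervals below 0 in both libraries (5.09% of all genes did) and 1 above, with medians of -0.23 and -0.06. Within cells called G1 alone, 136 of 4764 measured genes were called higher and 28 lower, and 78 of the 136 were among the 219. The part of the cycle in the other differences was not tested.

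Markers of other cells were measured beside these results. The summed level of 17 feeder fibroblast markers was 731 CPM in stress-high and 827 CPM in other germ cells of the control library, and 760.4 and 838 CPM in the Chd4 siRNA library, so it was lower in the stress-high cells of both. Most of this sum was 1 gene, Lgals1, with 907 of 1371 and 5454 of 8047 UMIs in the control library. In the Chd4 siRNA library it gave 1318 of 1843 and 5823 of 8202. Of 7 list genes with at least 200 UMIs, only Lgals1 had intervals below 0 in both libraries. Sertoli markers summed to 33.1 and 21.7 CPM and to 31.4 and 21.6 CPM. They were thus higher in the stress-high cells of both, log2 0.61 (0.18 to 1.02) and 0.53 (0.14 to 0.92). These sums held 62 and 76 UMIs in stress-high cells, and 3 of 8 genes had at least 20 UMIs. The 1 gene with at least 200 UMIs gave 0.15 and 0.68. Endothelial markers, on 22 and 20 UMIs in stress-high cells, gave -0.18 (-0.90 to 0.48) and -0.75 (-1.51 to -0.07). Macrophage markers summed to 18.1 and 13.97 CPM and to 25.2 and 14.1 CPM, with Adgre1 and C1qa at 0. Their log2 ratios were 0.38 (-0.21 to 0.93) and 0.84 (0.38 to 1.28). Only 1 of the 6 macrophage genes in named rows had at least 20 UMIs. That gene gave 0.36 and 0.88, so these sums were mostly 1 gene. Leydig markers stayed at or below 2.77 CPM, with Cyp11a1, Hsd3b1, Insl3 and Lhcgr at 0, and among 12 spermatocyte and spermatid markers Acrv1, Prm1, Prm2 and Tnp2 were at 0. Scrublet called 1 stress-high and 13 other germ cells doublets in the control library, and 0 and 6 after Chd4 siRNA.

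Cells with over 20% of UMIs in unnamed rows numbered 1 among stress-high and 6 among other germ cells of the control library, and 11 and 9 in the Chd4 siRNA library. These rows include the mitochondrial genes, which were not analysed here. Without these cells 210 genes were called higher and 45 lower. The stress-high shares were then 18.1% and 21.9%, a difference of 3.77 points.

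Levels across the score show how far the differences reach below the cut. Germ cells were put into 5 groups: the 331 cells with 0 rule-gene UMIs, the remaining cells below the cut in 3 groups of equal size by score, and the stress-high cells. In that order Atf4 was at 75.9, 79.99, 104, 142 and 279 CPM in the control library and at 88.9, 74.5, 102.3, 136 and 338 CPM in the Chd4 siRNA library. Tmc3 was at 29.7, 27.5, 31.0, 49.4 and 79.98 CPM in the control library and at 30.5, 33.96, 36.1, 49.8 and 94.9 CPM in the Chd4 siRNA library. Tmc3 was thus nearly level over the 3 lowest groups, and both genes were higher in the group just under the cut and highest in the stress-high cells. Bcl6b, in the other direction, was at 103.6, 85.8, 87.1, 69.3 and 43.2 CPM in the control library and at 105, 88.8, 82.96, 66.3 and 59.8 CPM in the Chd4 siRNA library.

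**Figure D4:**
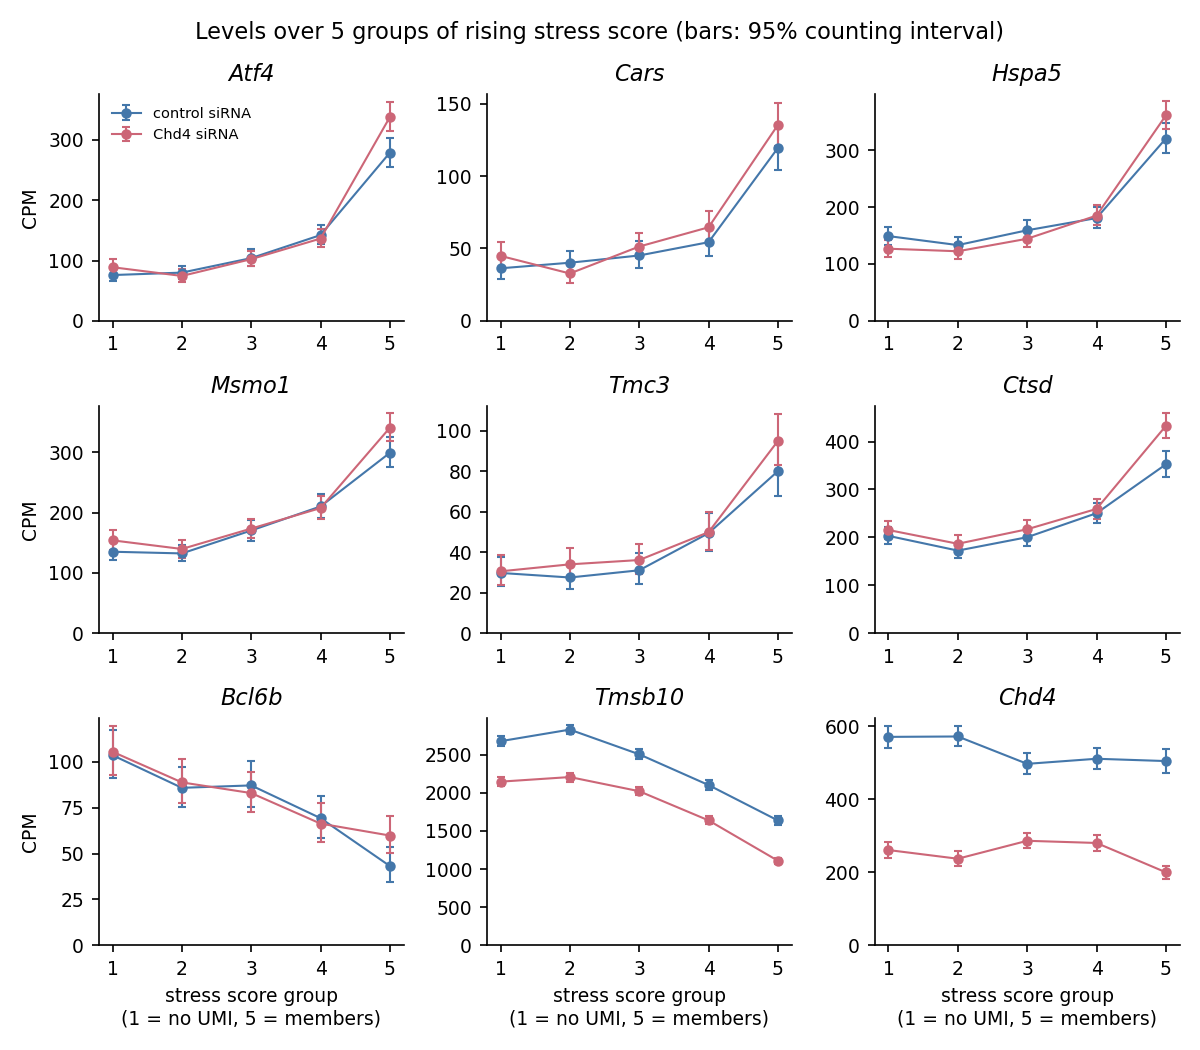
Level in CPM (y axis, from 0) of 9 genes over 5 groups of germ cells by stress score (x axis, 1 being cells with 0 rule-gene UMIs and 5 the stress-high cells), with 95% counting intervals, for both libraries. Atf4 reaches 279 and 338 CPM in the highest group from 75.9 and 88.9 CPM in the lowest, and Tmsb10 is lowest there, at 1638 and 1109 CPM.

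The same classes were compared between libraries, Chd4 siRNA over control siRNA. In stress-high cells 3421 genes had at least 200 UMIs, and 28 (0.818%) were at least 1.5-fold higher and 51 (1.49%) lower there. For the same genes in other germ cells 1 (0.0292%) was higher and 37 (1.08%) lower, where pooled counts are larger and ratios scatter less. Of the 99 named genes that are not rule genes, 20 had a difference between the 2 ratios with an interval off 0, 15 above and 5 below. These intervals hold counting error only and are not adjusted for the number of genes. The same count was not made over all measured genes, so 20 of 99 has no background share beside it. Many of the 99 were picked by their ratios between the classes in these libraries.

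Chd4 was lower in the Chd4 siRNA library by a log2 ratio of -1.34 in stress-high cells and -1.02 in other germ cells, a difference of -0.31 (-0.49 to -0.14). The interval stayed off 0 under 14 of 17 other settings, and the difference ran from -0.60 to 0.12, the positive value coming when cells with any UMI of the 5 feeder markers were left out. In the control library Chd4 was nearly level, -0.10 (-0.20 to 0.00) between stress-high and other germ cells, against -0.42 (-0.56 to -0.28) in the Chd4 siRNA library. Of 13 NuRD subunit genes 0 were called; Mta1 gave -0.60 and -0.55 and Rbbp4 0.29 and 0.23.

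Among the response genes, Atf4 and Hspa5 were further apart in the Chd4 siRNA library. Atf4 was 0.28 higher in its stress-high cells and 0.03 higher in its other germ cells, a difference of 0.25 (0.04 to 0.45), and Hspa5 differed by 0.26 (0.08 to 0.44). The interval of Atf4 stayed off 0 under 9 of 17 other settings and that of Hspa5 under 7, with ranges of -0.03 to 0.94 and -0.50 to 0.32. Intervals also lay above 0 for Hsp90b1 (0.14, 0.02 to 0.27), Sqstm1 (0.35, 0.05 to 0.64), Ctsl (0.22, 0.06 to 0.39) and Ctsd (0.19, 0.03 to 0.36). Pdia6 (0.19), Vimp (0.21), Mvd (0.21) and Gars (0.15) were above 0 with intervals that include 0. Others were below 0 with an interval that includes 0: Ppp1r15a -0.10, Gpt2 -0.08, Mthfd2 -0.01, Xbp1 -0.04, Insig1 -0.07 and Dusp1 -0.34. No difference was tested over a list. Nanos2 differed by 1.11 (0.25 to 1.97) on 17 and 38 UMIs in the stress-high cells, off 0 under 10 of 17 settings and between -0.82 and 3.29. Tmsb10 differed by -0.21 (-0.29 to -0.13) and was below 0 under all 17, with the interval off 0 under 14 and a range of -0.26 to -0.03. The score that chose the cells reads the same libraries, so the comparison is a description. Tmc3, Cars and Msmo1 had intervals of the difference that include 0.

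**Figure D5:**
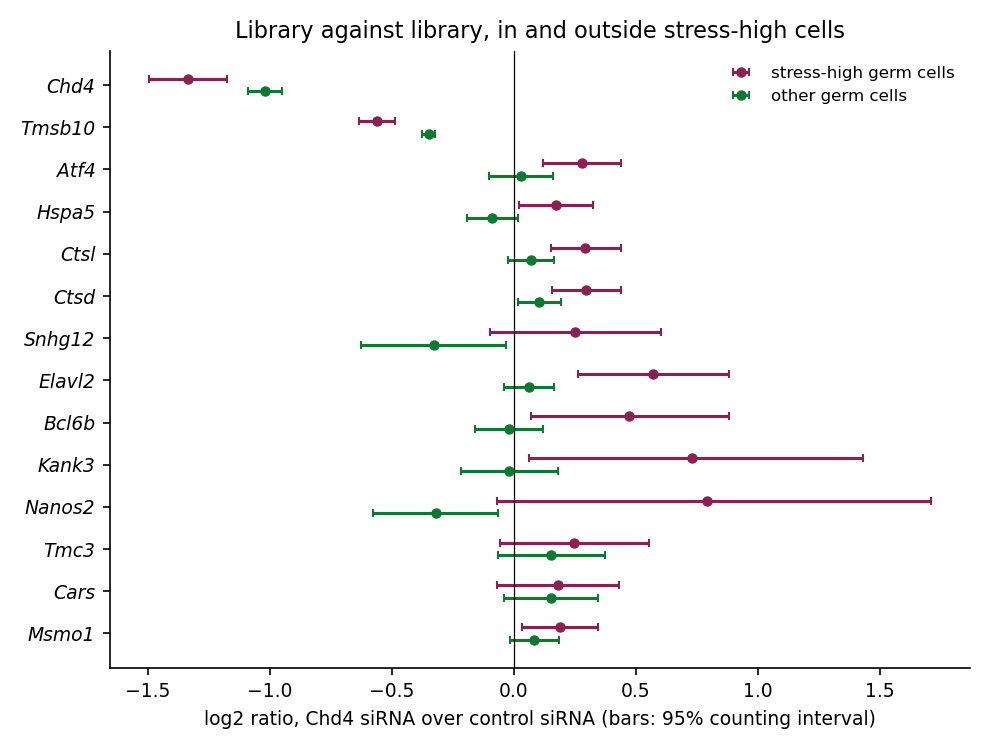
Log2 ratio of the Chd4 siRNA over the control siRNA library (x axis, 95% counting interval) in stress-high and other germ cells for 14 named genes. Chd4 lies at -1.34 and -1.02 and Tmsb10 at -0.56 and -0.35, while Tmc3, Cars and Msmo1 have overlapping intervals in the 2 classes.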

How the data were processed

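Droplet single-cell RNA libraries (10x Genomics v2) of 2 groups, control siRNA and Chd4 siRNA, were used. Each deposited matrix gives unnormalized UMI counts by gene row and cell column, as its whole-number values show. Cell Ranger 2.1.0, Seurat and mm10 are named in the submitters' processing notes, without roles, and how cells were called was not given in the sources used here. In the matrices the gene list names 26893 of 27998 rows; the other rows, with 12.1% and 12.6% of UMIs, were left out, and so were chromosome 19, the end of chromosome 18 and the mitochondrial genome. Each matrix ends inside its last cell, which was left out. There were 816 and 860 complete cells, of which 0 and 2 held under 1000 UMIs. Cells with equal germ and feeder sums (7 and 6) belong to neither class.

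UMIs were summed per library and class. Ratios carry exact conditional binomial (Clopper-Pearson) 95% intervals, and differences of log2 ratios normal intervals from Poisson variances. Named genes were the rule genes, Tmc3, Chd4, and the 12 highest and 12 lowest genes among those with at least 200 UMIs. The highest and lowest were ranked by the interval end closer to 0 in the weaker library. Up to 4 per list were added by that end, with the same minimum of UMIs. Other genes describe a list's range and were taken after their values were seen. The members and the lists were chosen with earlier results of these data known, and 3 lists were added after seeing values. Phases were called with scanpy 1.11.5 on cells thinned to 9000 UMIs, and Scrublet (expected rate 1%) only marked doublets, which were kept. edgeR 4.0.16 and DESeq2 1.42.0 (R 4.3.3) served for scaling alone. The code was tested on simulated data. Alternatives numbered 20 planned and 2 added. Gene positions came from GENCODE M21 of the mm10 assembly. A few named genes are not reported here.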

Additional observations from a re-analysis of the deposited data

Results flagged for a closer look

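Feeder-marker cells were outside the comparisons but carried the same transcripts. Of 79 such cells in the control library 16 (20.3%) lay above the score that set the stress-high germ cells, and of 92 in the Chd4 siRNA library 20 (21.7%). These shares were near those of germ cells, 17.8% and 22.1%, at median depths of 38655 and 39671.5 UMIs. The median score of the feeder-marker cells was 1.30 and 0.957 per 10000 UMIs.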

How the results depend on the processing

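Each group was 1 library, so no value has a replicate check, and genes near 200 UMIs have wide intervals. No paired analysis was possible because each group is 1 pooled library. The difference of the shares kept its sign under every setting run for it, and it was computed within each setting. Of 94 values of the main results 59 stayed near the reported value; the others follow, and the cause was not tested. The shares were 8.22% and 11.7% at the top 10% and 27.1% and 32.8% at the top 30%. Genes called higher and lower numbered 354 and 142 at the top 10% (183 and 33 shared with the reported sets), 129 and 21 at the top 30%, 121 and 99 with TMM, 132 and 83 with DESeq2 factors, 96 and 15 with the score without Ddit3, 114 and 31 with split UMIs (77 shared higher), 136 and 28 in G1 cells, and 36 and 62 in G2/M cells. Of the 48 lower genes, 14 were shared with split UMIs, 10 with thinned cells, 6 with the score without Ddit3, 9 in G1 and 5 in G2/M cells. Of the 36 genes called higher in G2/M cells, 13 were shared. Thinned cells gave 106 higher (82 shared) from fewer genes. Fewer or more genes tested gave 432 and 157 (at least 50 UMIs), 125 and 23 (at least 500), 952 and 258 (no filter), and a fold of 2 gave 35 and 2. Alternatives were also added after seeing the data. Cells without feeder-marker UMIs gave 145 higher (81 shared) and 42 lower (14 shared), from 5317 genes. The score from Trib3, Chac1 and Atf3 alone gave 29 and 9, with 26 of the higher shared and 0 of the lower. Under that score the log2 ratio in the weaker library turned to 0.024 for Hmgn5 and 0.19 for Cyp2u1. The Chd4 ratio between libraries in stress-high cells, -1.34, was -1.58 at the top 10%, -1.17 thinned, -1.51 in G2/M cells and -0.93 without feeder-marker UMIs. Chd4 between classes in the control library changed from -0.10 to 0.12 with the score without Ddit3 and 0.05 in G1 cells.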

Other observations

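Of 8246 genes, 14 had intervals on opposite sides of 0 in the 2 libraries, and they were chosen after the values were seen. Over this many genes some intervals fall so by counting error alone, and how many was not worked out. Foxo1, a transcription factor of spermatogonial maintenance, was at 61.9 CPM in stress-high and 82.9 CPM in other germ cells of the control library and at 97.8 and 83.3 CPM in the Chd4 siRNA library, log2 ratios of -0.42 and 0.23. Ncapg2, a condensin subunit gene, gave -0.67 and 0.39, and Tob1, an anti-proliferative gene, -0.61 and 0.60. Among the 219 genes higher in stress-high cells the median longest transcript was 2736 bases, against 3289 bases over all measured genes and 2893 bases among the 48 lower genes.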
